A study of Mus musculus with 3 samples.

Results

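The enzymes and carriers of glycolysis, lactate handling and the pentose phosphate pathway were read in 3 cell fractions of mouse epididymal fat. A gene belonged to this set if a probe that is not a control carried its name, from a list of 35 genes. This rule used no measured value, but the list was chosen with earlier results of these data known. All 35 were found among the 37074 gene names on the arrays, on 85 probes and 112 spots. The study compared stromal vascular cells (SVC), small proliferative adipocytes (SPA) and mature adipocytes (MA) to describe SPA, a dividing cell population that carries adipocyte transcripts, with 1 array per fraction.

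The 3 fractions shared strain, sex, age and depot, which were C57/BL, male, 20 weeks and epididymal, and the labels name no transgene and no drug. Fat was digested with collagenase. SVC was the lower phase of a spin at 9 g lasting 1 s, and the floating cells were then spun at 226 g for 3 min, with MA floating and SPA at the bottom. The cells of SVC and SPA were grown in DMEM, a standard culture medium, to 90% confluency, and no culture is described for MA. Culture and cell type therefore cannot be told apart between MA and the other fractions, and the title of the MA sample also carries another date. The sources used here do not give the number of animals behind an array. With 1 array per fraction, no difference below has a replicate check, no test was run, and precision is limited by the number of arrays.

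Glycolysis splits glucose into pyruvate in the cytosol, and phosphofructokinase is its main control step, switched on by a signalling sugar phosphate that the Pfkfb enzymes make and remove. Pyruvate is either reduced to lactate by lactate dehydrogenase and carried out of the cell by monocarboxylate transporters, or taken into mitochondria, where the pyruvate dehydrogenase (PDH) complex oxidizes it and the PDH kinases shut that complex off. The pentose phosphate pathway draws glucose phosphate away to make NADPH, which fat cells use for fatty acid synthesis, and ribose phosphate for nucleotides.

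The level of a gene is given below as the log2 of its processed signal over the 75th percentile of all spots on that array that are not controls, so that 0 is the 75th percentile. That percentile was a signal of 430 in SVC, 439 in SPA and 366 in MA. Between 58.6% and 61.4% of these spots were well above background, and 0 were saturated. A gene was read at the brightest of its probes, and levels of different genes are not set against each other because probes differ in brightness. Probes spotted repeatedly on 1 array varied by a median SD of 0.04 to 0.05 log2, which is error within an array only. A difference in level can come from fewer cells of a type or from less RNA per cell, and these cannot be told apart.

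Signals well above background on all 3 arrays were obtained for 34 of the 35 genes. The exception was Pklr, the pyruvate kinase of liver and red cells, whose log2 level of -6.24 in SVC, -7.07 in SPA and -6.74 in MA was not well above background on any array. Among the 34 measured genes, 19 had their highest level in SPA, 12 in MA and 3 in SVC. The same split was not counted for all genes, so it is not known whether this one is unusual. At least 2-fold differences in some comparison were seen for 21 genes, and 13 differed by less than 2-fold in all 3 comparisons. How many of all genes passed 2-fold in some comparison was not counted, and their shares are given below for each comparison.

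**Figure D1:**
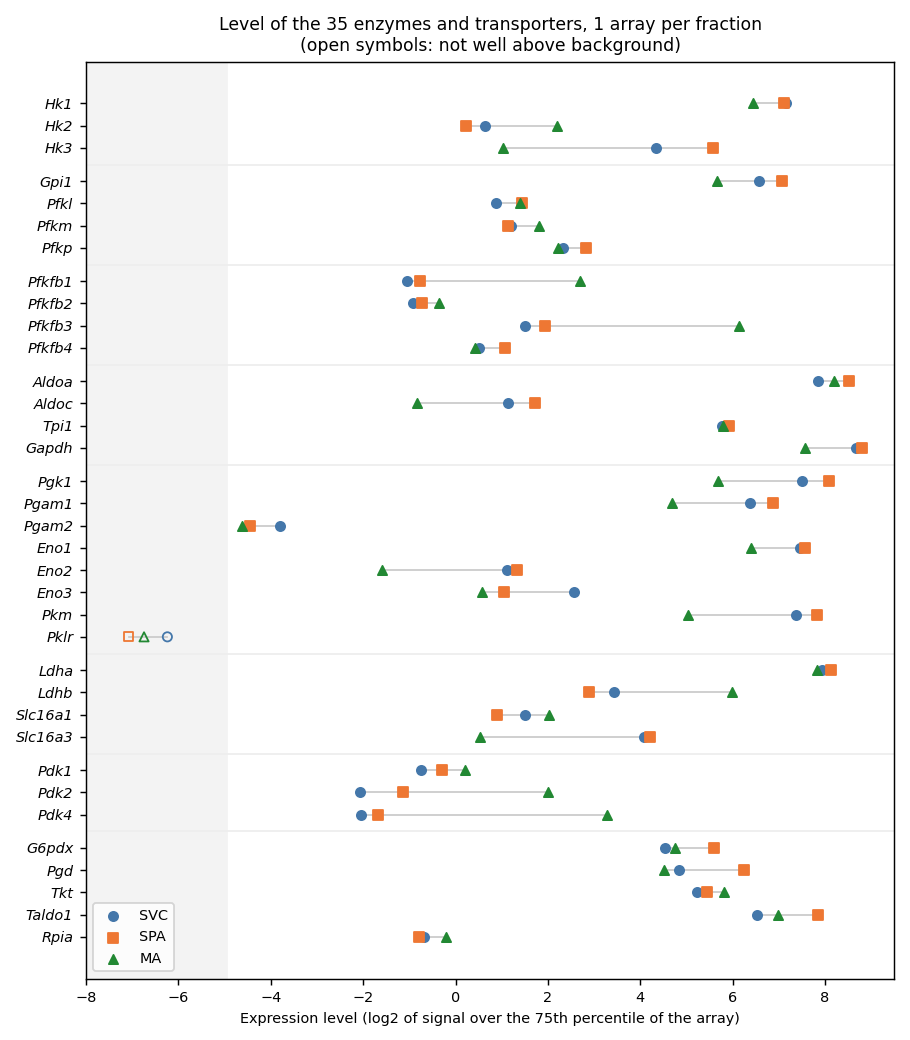
Each row is 1 of the 35 genes, grouped by step of the pathway, and the horizontal axis is the log2 level, set against the 75th percentile of each array, in SVC (circles), SPA (squares) and MA (triangles), 1 array each. The grey field lies below the dimmest probes that were well above background, and Pklr is the gene with open symbols inside it; the widest gaps between MA and SPA are those of Pdk4, Hk3 and Pfkfb3.

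Between the cultured fractions, the set differed little in size and mostly in the same direction. SPA over SVC, 26 genes had a log2 ratio above 0 and 8 below 0, with a median of 0.33 against 0.05 for all genes measured on both arrays. All genes so measured also leaned upward, with 11601 above 0 and 9097 below. SPA exceeded SVC by 2-fold or more for 4 of 34 genes (11.8%), beside 3.9% of 22663 genes on the arrays. These were Hk3, G6pdx, Pgd and Taldo1. At least 2-fold lower was 1 gene (2.94%), Eno3, beside 3.25% of all genes. None of the 34 differed 5-fold, a size reached upward by 0.322% and downward by 0.353% of all genes.

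Against MA, differences ran in both directions and were larger. MA over SPA, 7 of 34 genes (20.6%) were at least 2-fold higher, beside 15.8% of 23956 genes, and 11 (32.4%) were at least 2-fold lower, beside 17.9%. At 5-fold these counts were 5 higher and 6 lower, where 5.49% and 3.98% of all genes passed. The median log2 ratio was -0.39 against -0.08 for all genes. MA over SVC, 6 genes (17.6%) were at least 2-fold higher, beside 17.3% of 23453 genes, and 10 (29.4%) were at least 2-fold lower, beside 18.0%. At 5-fold there were 5 higher and 4 lower, where 5.74% and 3.97% of all genes passed, and the median was -0.04 against -0.07. Quantile normalization, which forces the arrays to 1 distribution, turned this median to 0.36, with 8 genes at least 2-fold higher and 8 lower, beside 17.5% and 17.5% of all genes. In MA over SPA it also gave 8 higher and 8 lower of 34 genes, beside 4071 higher and 4011 lower of 23957 genes on the arrays. The 3 comparisons share arrays pairwise, so these counts are not independent of each other. The share of genes at least 2-fold higher in MA than in SVC was close to that of all genes. This did not hold at 5-fold or under quantile normalization.

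**Figure D2:**
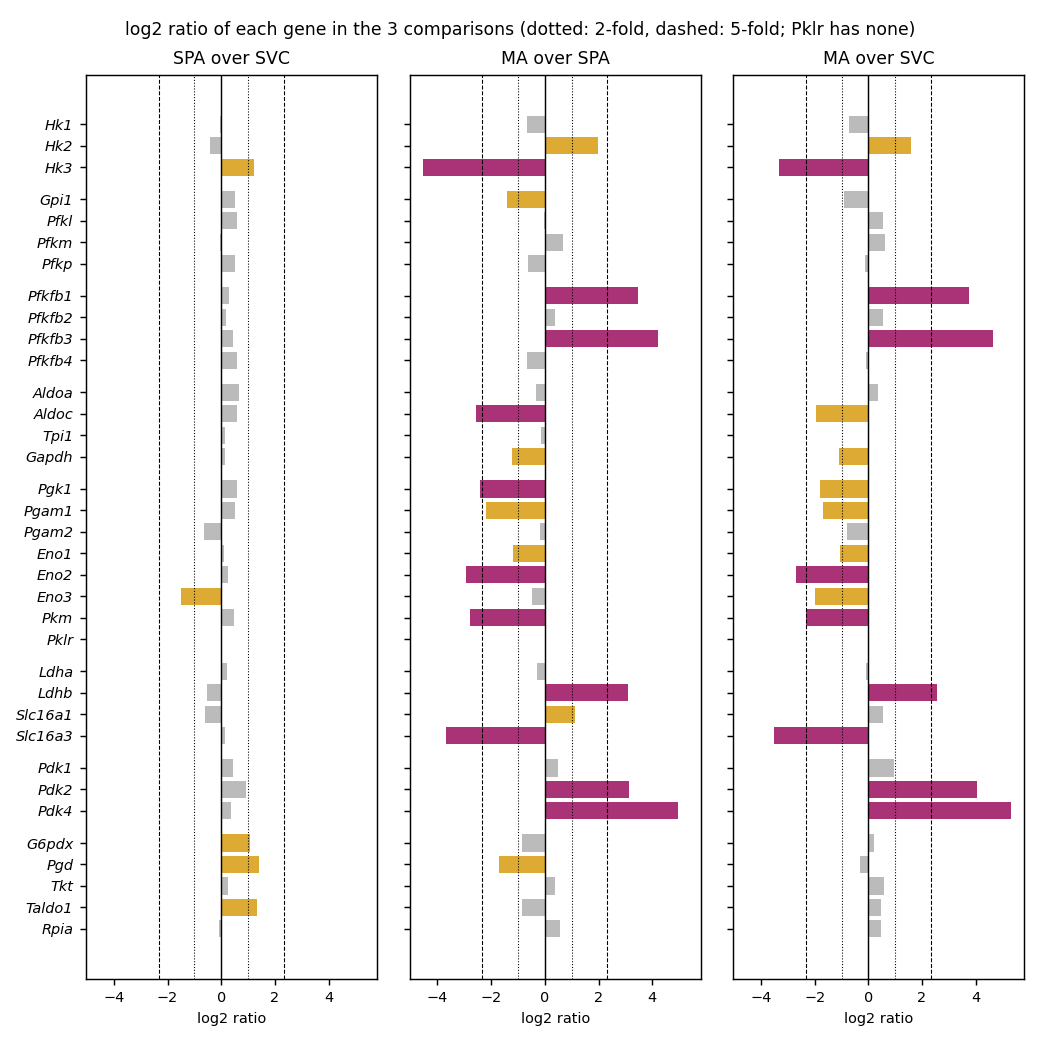
Bars give the log2 ratio of each gene for SPA over SVC, MA over SPA and MA over SVC, from 1 array per fraction, in grey under 2-fold, amber from 2-fold and magenta from 5-fold. No bar of the left panel is magenta, and in the MA over SPA panel 5 magenta bars point to MA and 6 to SPA.

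**Figure D3:**
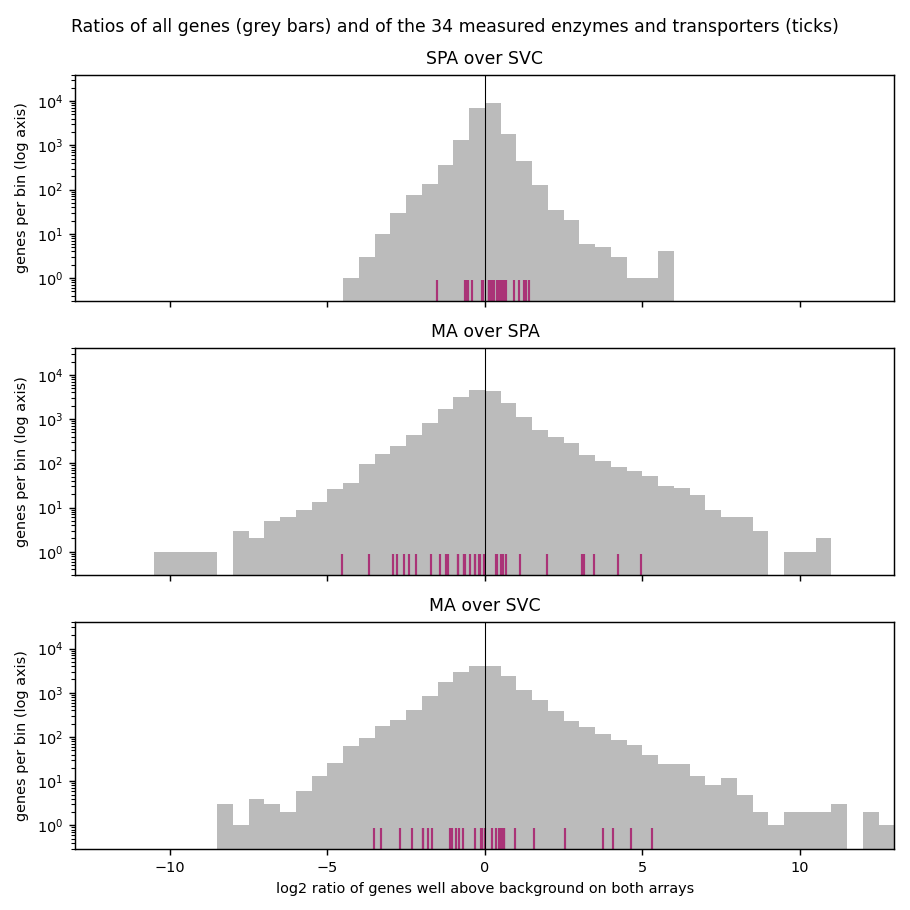
Grey bars count all genes well above background on both arrays by their log2 ratio in bins, on a log axis, and the ticks mark the 34 measured enzymes and carriers. The ticks of SPA over SVC lie between -1.52 and 1.39, and those of MA over SPA between -4.55 and 4.95, inside the range of all genes in both.

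The array carries probes whose annotated positions span more of the genome than their own length of 60 bases, so the annotation places them across an exon junction. For 4 genes on which the results turn, such a probe read the transcript apart from the brightest probe. They are shown because they place the readings on spliced RNA, and positions follow the annotation of the array, in build mm9, with Ldhb at chr6:142444206-142447028 on the minus strand, Pfkfb3 at chr2:11404189-11405602 on the minus strand, Pkm at chr9:59518501-59519397 on the plus strand and Taldo1 at chr7:148587650-148587824 on the plus strand.
Ldhb: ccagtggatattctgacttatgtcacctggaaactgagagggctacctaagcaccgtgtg
Pfkfb3: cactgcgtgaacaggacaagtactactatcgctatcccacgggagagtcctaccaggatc
Pkm: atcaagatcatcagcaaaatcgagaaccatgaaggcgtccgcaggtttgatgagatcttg
Taldo1: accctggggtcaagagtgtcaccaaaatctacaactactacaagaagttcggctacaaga

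Their log2 ratios lay on the same side of 0 as those of the brightest probe in the comparisons where the gene differed by 2-fold. MA over SPA, the junction probe gave 3.70 for Ldhb, 4.18 for Pfkfb3 and -2.79 for Pkm, with the Ldhb value 0.61 above that of its brightest probe and the brightest probes of Pfkfb3 and Pkm at 4.21 and -2.78. SPA over SVC, the junction probe of Taldo1 gave 1.26 and its brightest probe 1.32.

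The hexokinases, which trap glucose in the cell as glucose phosphate, each took a different course. Hk1, the form found in most tissues, had a log2 level of 7.16 in SVC, 7.10 in SPA and 6.45 in MA, so its ratios stayed under 2-fold at its brightest probe. Its other measured probes gave log2 ratios MA over SPA of -2.37, 0.03 and -0.13, so the Hk1 probes disagreed. Hk2, the insulin-responsive form of muscle and fat, had a level of 0.64 in SVC, 0.23 in SPA and 2.21 in MA. It was 3.93-fold higher in MA than in SPA and 2.97-fold higher than in SVC, so MA alone stood out. Hk3, the form of white blood cells, ran the other way, with 4.35 in SVC, 5.58 in SPA and 1.04 in MA. Hk3 in SPA exceeded SVC 2.35-fold, and MA was 23.4-fold below SPA, which was the largest difference downward in the set, and its other measured probe gave a log2 ratio of -4.85 there. Of the macrophage markers Adgre1, Cd68, Csf1r, Mrc1, C1qa, C1qb, Lyz2 and Itgam, 8 of 8 were well above background on each array, and the log2 of their summed level was 9.10 in SVC, 9.23 in SPA and 7.63 in MA. MA over SPA, 3 of them were at least 2-fold lower and 2 at least 2-fold higher, beside 17.9% and 15.8% of all genes. Cd68 was 8.58-fold lower and C1qa 11.3-fold higher. The part of the macrophage markers in the Hk3 result was not tested.

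Glucose phosphate isomerase and the phosphofructokinases, the next steps, differed less. Gpi1, the isomerase, had a log2 level of 6.58 in SVC, 7.08 in SPA and 5.66 in MA. It was 2.66-fold lower in MA than in SPA, a fold that all 4 of its probes gave within log2 ratios of -1.45 to -1.31, and 1.88-fold lower than in SVC. Quantile normalization brought Gpi1 to -0.67, under 2-fold. The liver, muscle and platelet forms of phosphofructokinase, Pfkl, Pfkm and Pfkp, differed by less than 2-fold in all comparisons at their brightest probes, with log2 ratios MA over SPA of -0.04, 0.66 and -0.62. For Pfkl the other measured probe gave -1.69, so its probes disagreed.

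The Pfkfb enzymes, which set the signal that drives phosphofructokinase, contained some of the largest differences toward MA. Pfkfb3, an inducible form with high kinase activity, had a log2 level of 1.50 in SVC, 1.93 in SPA and 6.14 in MA. It was 18.5-fold higher in MA than in SPA and 24.9-fold higher than in SVC. Pfkfb1, the form first known from liver and muscle, had -1.06 in SVC, -0.77 in SPA and 2.69 in MA, so it too was high in MA alone. Pfkfb1 was 11.0-fold higher in MA than in SPA and 13.4-fold higher than in SVC, with 3.09 as the log2 ratio MA over SPA of its other probe. The heart form Pfkfb2 and the form Pfkfb4 differed by less than 2-fold, with log2 ratios MA over SPA of 0.37 and -0.66. The forms of this family therefore did not move together.

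Aldolase and the triose steps split into members that held their level and members that were lower in MA. Aldoa, the aldolase of most tissues, had a log2 level of 7.85 in SVC, 8.51 in SPA and 8.20 in MA, and Tpi1, triose phosphate isomerase, had 5.77, 5.92 and 5.78 in the same order. Both stayed under 2-fold in all comparisons. Aldoc, the aldolase of brain, had 1.14 in SVC, 1.73 in SPA and -0.83 in MA. Aldoc was 5.90-fold lower in MA than in SPA and 3.92-fold lower than in SVC, and its 10 repeated spots varied by an SD of 0.05 to 0.06 log2 on each array. Its other probes gave log2 ratios MA over SPA of -3.49 and -3.52, so the brightest probe gave the smallest difference.

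Gapdh, which oxidizes triose phosphate and is often used as a loading control, was also lower in MA. Its log2 level was 8.66 in SVC, 8.80 in SPA and 7.57 in MA, which is 2.35-fold lower in MA than in SPA and 2.14-fold lower than in SVC, while SPA and SVC differed by 1.10-fold. All 7 Gapdh probes were lower in MA than in SPA, with log2 ratios from -1.95 to -0.90. The array annotation maps the brightest probe to an 8-base stretch only, and the accessions of the other 6 also match pseudogenes, so signal from near-identical copies cannot be separated. Under quantile normalization Gapdh was at -0.96 MA over SPA and -0.85 MA over SVC, under 2-fold.

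The steps from phosphoglycerate kinase to pyruvate kinase mostly had lower levels in MA. Of the 7 measured genes here, 7 had a log2 ratio below 0 in MA over SPA, where all genes split into 11105 below and 9558 above. At least 2-fold lower were 5 and higher 0, beside 17.9% and 15.8% of all genes, and the median of the 7 was -2.20. MA over SVC, 6 of 7 were at least 2-fold lower, beside 18.0% of all genes, with a median of -1.82. SPA over SVC, 5 lay above 0 and 2 below, with a median of 0.23. Pgk1, the kinase that makes the first ATP of the payoff phase, had a log2 level of 7.49 in SVC, 8.08 in SPA and 5.68 in MA, 5.28-fold lower in MA than in SPA and 3.52-fold lower than in SVC. Its dimmer probe gave a log2 ratio of -0.51, and the annotation places that probe on the strand opposite to the gene. Pgam1, the phosphoglycerate mutase of most tissues, had 6.38 in SVC, 6.88 in SPA and 4.69 in MA, 4.59-fold lower in MA than in SPA and 3.23-fold lower than in SVC. The SD over the 10 spots of the Pgam1 probe was 0.04 to 0.06 log2 on each array, which is error within an array only. Pgam2, the muscle form, was dim on all arrays, at -3.81, -4.44 and -4.63, and stayed under 2-fold.

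The enolases, which make phosphoenolpyruvate, each differed in another way. Eno1, the form of most tissues, had a log2 level of 7.46 in SVC, 7.57 in SPA and 6.40 in MA, 2.25-fold lower in MA than in SPA and 2.08-fold lower than in SVC. Its probes were spread widely, with log2 ratios MA over SPA of -1.17, -1.51 and -5.37. The accession of the probe at -1.51 also matches Eno1b, and under quantile normalization Eno1 was at -0.46 MA over SPA and -0.30 MA over SVC. Eno2, the neuronal form, had 1.10 in SVC, 1.34 in SPA and -1.59 in MA, 7.64-fold lower in MA than in SPA and 6.50-fold lower than in SVC. Eno3, the muscle form, was the only gene of the set at least 2-fold lower in SPA than in SVC. Its level was 2.56 in SVC, 1.04 in SPA and 0.58 in MA, 2.86-fold lower in SPA and 3.95-fold lower in MA than in SVC. The log2 summed level of 9 skeletal muscle markers was 3.27 in SVC, 2.11 in SPA and 1.21 in MA, while their median level was -3.22, -2.75 and -2.94. SPA over SVC, 1 of the 7 read was at least 2-fold lower and 0 higher, beside 3.25% and 3.9% of all genes, with a median log2 ratio of -0.35. Ckm and Myh1 were not well above background on any array. The part of the muscle markers in the Eno3 result was not tested.

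Pkm, the pyruvate kinase of most tissues other than liver, closed the pathway with a large difference. Its log2 level was 7.36 in SVC, 7.82 in SPA and 5.04 in MA, 6.89-fold lower in MA than in SPA and 5.01-fold lower than in SVC. All 4 Pkm probes were lower in MA, with log2 ratios MA over SPA from -3.99 to -2.78, and no probe is assigned here to 1 of its splice forms. Between the cultured fractions Pkm differed by 1.38-fold. Of 8 markers of proliferating cells, 8 were at least 2-fold lower in MA than in SPA, beside 17.9% of all genes. The median log2 ratio of these markers was -2.76, and their summed log2 level was 6.20 in SVC, 5.85 in SPA and 3.61 in MA. Their part in the lower glycolytic levels was not tested.

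Lactate enzymes and carriers diverged within each pair. Ldha, the dehydrogenase subunit that favours lactate formation, had a log2 level of 7.93 in SVC, 8.12 in SPA and 7.82 in MA, so all its ratios lay within 1.23-fold. Ldhb, the subunit that favours lactate use, had 3.44 in SVC, 2.89 in SPA and 5.99 in MA. Ldhb was 8.55-fold higher in MA than in SPA and 5.85-fold higher than in SVC, so the dehydrogenase pair differed only in this subunit. Slc16a1 (MCT1), a carrier that moves lactate either way, had 1.49 in SVC, 0.90 in SPA and 2.03 in MA, 2.18-fold higher in MA than in SPA and 1.45-fold higher than in SVC. Slc16a3 (MCT4), the export carrier of highly glycolytic cells, had 4.07 in SVC, 4.21 in SPA and 0.54 in MA. It was 12.7-fold lower in MA than in SPA and 11.6-fold lower than in SVC, opposite to Slc16a1. These differences of each gene between arrays were thus in opposite directions within the carrier pair.

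The promoters of these 4 genes are shown because the pairs diverged. They run from 250 bases before to 50 after a RefSeq start, 5′ to 3′ on the gene's strand, in build GRCm38.p6, and where RefSeq lists several starts the first listed was used. Ldha is at chr7:46845554-46845853 on the plus strand, Ldhb at chr6:142507908-142508207 on the minus strand, Slc16a1 at chr3:104638414-104638713 on the plus strand and Slc16a3 at chr11:120948817-120949116 on the plus strand. Capitals mark ACGTG, the core letters of the hypoxia response element and of the E-box CACGTG, and GCGTG, its variant, each on either strand.
Ldha: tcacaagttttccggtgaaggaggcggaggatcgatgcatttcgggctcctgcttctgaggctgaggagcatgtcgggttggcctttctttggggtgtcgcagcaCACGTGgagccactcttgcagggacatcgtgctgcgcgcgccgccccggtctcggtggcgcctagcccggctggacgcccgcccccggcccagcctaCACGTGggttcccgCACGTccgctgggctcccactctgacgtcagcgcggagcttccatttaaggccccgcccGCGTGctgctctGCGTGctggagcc
Ldhb: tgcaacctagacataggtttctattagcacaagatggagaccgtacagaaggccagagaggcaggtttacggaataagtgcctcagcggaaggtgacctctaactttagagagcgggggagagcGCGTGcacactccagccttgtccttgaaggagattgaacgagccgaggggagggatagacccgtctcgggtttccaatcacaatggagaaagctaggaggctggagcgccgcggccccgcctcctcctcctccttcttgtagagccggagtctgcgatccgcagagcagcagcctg
Slc16a1: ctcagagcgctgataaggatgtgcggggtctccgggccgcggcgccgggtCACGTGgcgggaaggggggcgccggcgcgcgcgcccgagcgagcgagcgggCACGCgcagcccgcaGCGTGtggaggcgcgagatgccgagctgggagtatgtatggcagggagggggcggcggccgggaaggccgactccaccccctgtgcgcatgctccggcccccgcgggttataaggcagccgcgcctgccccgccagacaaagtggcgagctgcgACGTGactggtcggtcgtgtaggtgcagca
Slc16a3: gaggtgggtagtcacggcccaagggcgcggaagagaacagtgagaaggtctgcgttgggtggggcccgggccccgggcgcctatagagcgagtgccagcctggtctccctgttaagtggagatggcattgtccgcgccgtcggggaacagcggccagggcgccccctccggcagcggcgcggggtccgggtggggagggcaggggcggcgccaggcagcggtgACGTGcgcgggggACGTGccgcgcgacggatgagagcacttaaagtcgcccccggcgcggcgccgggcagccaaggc

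ACGTG was found 5 times in the Ldha window and 0 times in that of Ldhb, both strands counted. It was found 3 times in that of Slc16a1 and 2 times in that of Slc16a3. CACGTG gave 2, 0, 1 and 0 sites in this order. Each CACGTG reads as ACGTG on both strands and was counted on each, so these counts exceed the separate places in Ldha and Slc16a1. GCGTG was found 2, 1, 2 and 0 times in the same order. Of the 35 genes, 14 (40.0%) held ACGTG in this window and 19 (54.3%) held GCGTG, beside 19.7% and 32.5% of 27025 RefSeq mouse promoters of the same length. CACGTG was held by 5 (14.3%), beside 7.24%. The windows of the 35 genes had a median GC content of 60.0%, against 52.7% over all, and both motifs are themselves rich in G and C. A match is a match of letters only, and its absence says only that the letters are not in the window.

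The PDH kinases, which hold pyruvate back from oxidation, held the largest difference of the set. Pdk4, the form induced by fasting and fatty acids, had a log2 level of -2.05 in SVC, -1.68 in SPA and 3.27 in MA. It was 30.9-fold higher in MA than in SPA and 39.9-fold higher than in SVC. Pdk2, the form of most tissues, had -2.06 in SVC, -1.14 in SPA and 1.99 in MA, 8.77-fold higher in MA than in SPA and 16.6-fold higher than in SVC. Both were low in the cultured fractions and high in MA. Pdk1, the form induced by low oxygen, had -0.75 in SVC, -0.30 in SPA and 0.20 in MA. At its brightest probe it stayed under 2-fold in each comparison, nearest to it with 1.93-fold in MA over SVC. Another Pdk1 probe gave 2.02-fold there. Each of Pdk2 and Pdk4 was read by 1 probe, so no second reading exists for them. The same holds for Hk2, Eno2, Eno3, Slc16a1 and G6pdx among the genes at least 2-fold apart. For Slc16a3 no second probe was well above background on both arrays of a comparison.

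**Figure D4:**
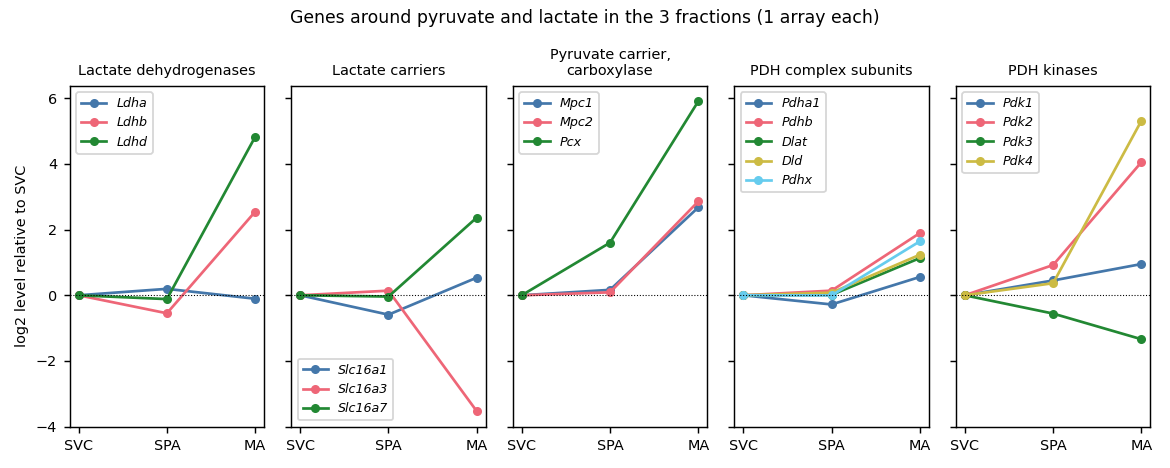
Log2 levels of genes around pyruvate and lactate in SVC, SPA and MA are drawn relative to SVC, 1 array each, with lines joining the values of a gene. Lines of Slc16a3 and Pdk3 end below 0 in MA, that of Ldha ends at -0.11, and those of the other genes end above 0.

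The pentose phosphate pathway held 3 of the 4 genes for which SPA exceeded SVC by 2-fold or more. These were 3 of its 5 genes, beside 3.9% of all genes, and 0 were lower by that much, beside 3.25%. The median log2 ratio of the 5 was 1.07. G6pdx, the entry enzyme and a source of NADPH, had a log2 level of 4.53 in SVC, 5.60 in SPA and 4.75 in MA, so SPA exceeded SVC 2.10-fold. Pgd, the other NADPH-making dehydrogenase, had 4.84 in SVC, 6.23 in SPA and 4.51 in MA, so SPA exceeded SVC 2.63-fold and MA 3.29-fold. Taldo1, the transaldolase that links the pathway back to glycolysis, had 6.53 in SVC, 7.84 in SPA and 6.98 in MA, so SPA exceeded SVC 2.50-fold. In all of these SPA held the highest level and MA lay within 2-fold of SVC, except that quantile normalization put Taldo1 at 1.21 MA over SVC. G6pdx was just past 2-fold and went under it with quantile normalization, at 0.90. For Pgd the other probe measured on both arrays gave 0.81 SPA over SVC, under 2-fold. Its dimmest detected probe gave only a bound, 0.17 there and -0.36 MA over SPA. Tkt, transketolase, and Rpia, ribose phosphate isomerase, stayed under 2-fold, with log2 ratios SPA over SVC of 0.23 and -0.09, so these other enzymes of the non-oxidative branch did not share the difference of Taldo1. Tkt passed 2-fold only under quantile normalization, at 1.04 MA over SPA.

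Across the set, probes of 1 gene mostly pointed the same way. Of 22 genes with at least 2 probes measured, all probes lay on 1 side of 0 for 19 in SPA over SVC, 18 in MA over SPA and 17 in MA over SVC. The median range between the probes of a gene was 0.18, 0.57 and 0.49 log2. A range over 1 log2 occurred for 0, 7 and 7 genes, and the widest was that of Eno1. For Hk1 the probes ran from -2.37 to 0.03 MA over SPA, the second widest range. No gene at least 2-fold apart in MA over SPA had a measured probe on the other side of 0.

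**Figure D5:**
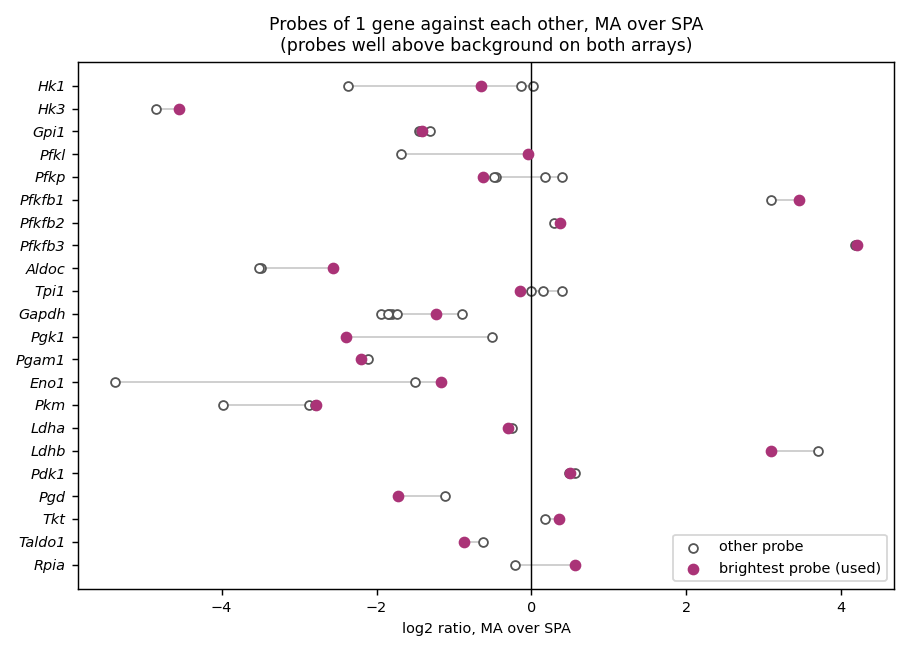
Rows are the 22 genes with at least 2 probes well above background on both arrays, and points give the log2 ratio MA over SPA of each probe, filled for the brightest probe, which was used, and open for the others. Rows that cross 0 are those of Hk1, Pfkp, Tpi1 and Rpia, and the Eno1 row reaches -5.37.

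Genes that feed or drain the same pathway outside the set were read from a list of 44, also chosen with earlier results known. MA over SPA, 17 of 40 read genes (42.5%) were at least 2-fold higher and 3 (7.5%) lower, beside 15.8% and 17.9% of all genes, with a median log2 ratio of 0.80. SPA over SVC, 4 of 38 were higher and 0 lower, beside 3.9% and 3.25%, with a median of 0.12. MA over SVC, 18 of 39 were higher and 5 lower, beside 17.3% and 18.0%, with a median of 0.78. At the entrance, the insulin-responsive glucose carrier Slc2a4 had a log2 level of -2.28 in SVC, 0.07 in SPA and 5.32 in MA, 38.1-fold higher in MA than in SPA. The basal carrier Slc2a1 had 3.20, 4.05 and 1.38 in the same order, 6.37-fold lower in MA than in SPA. These 2 carriers thus differed in opposite directions.

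Around pyruvate, Ldhd, the dehydrogenase of D-lactate, was 30.8-fold higher in MA than in SPA, and Slc16a7, a carrier with high affinity for pyruvate, was 5.30-fold higher. Both subunits of the mitochondrial pyruvate carrier were higher, Mpc1 by 5.70-fold and Mpc2 by 6.82-fold. Pcx, pyruvate carboxylase, had a log2 level of 1.14 in SVC, 2.74 in SPA and 7.05 in MA, 19.8-fold higher in MA than in SPA. All 5 PDH complex genes on the list were above 0 in MA over SPA, with Pdhb at 1.75, Pdhx at 1.65, Dld at 1.16, Dlat at 1.12 and Pdha1 at 0.84 on the log2 scale, and Pdk3, the remaining PDH kinase, was at -0.78. The complex and the kinases Pdk2 and Pdk4, which oppose it, thus lay on the same side.

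Of the remaining genes on the list at least 5-fold apart, Gpd1, which makes glycerol phosphate, had a log2 level of -2.19 in SVC, 1.81 in SPA and 7.64 in MA, a step of 16.0-fold from SVC to SPA and of 57.0-fold from SPA to MA. Pck1, which makes phosphoenolpyruvate for glycerol synthesis in fat, had -6.75, -3.60 and 6.62. In SVC it was not well above background, so it was at least 3037-fold higher in MA than in SVC, taking the dimmest detected signal as the SVC level. Fbp1, a gluconeogenic phosphatase that opposes phosphofructokinase, was 5.84-fold higher in MA than in SPA. Pck2, the mitochondrial counterpart of Pck1, was 2.28-fold lower in MA than in SPA, and Gpd1l and Gpd2, relatives of Gpd1, were at log2 ratios of 0.69 and 0.56, under 2-fold. Tigar, a phosphatase that lowers the same signal as the Pfkfb enzymes make, was 3.48-fold lower.

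The defining markers of the labelled fractions were checked on the same scale. Of 8 adipocyte markers, Adipoq and Plin1 were not well above background in SVC and 8 of 8 were in SPA and MA, and their log2 summed level was 3.17 in SVC, 6.31 in SPA and 11.59 in MA. Fibroblast markers were detected on all arrays, at 9.41, 8.50 and 9.28. Erythrocyte markers summed to -1.46 in SVC, -1.31 in SPA and 9.41 in MA, mesothelial markers to 4.75, 2.80 and 4.37, and germ cell markers to -1.86, -1.67 and -0.98. Of the germ cell list, the sperm enzymes Ldhc, Pgk2 and Gapdhs were not well above background on any array. The part of these other cells in the levels of the enzymes was not tested.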

How the data were processed

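SVC, SPA and MA of mouse epididymal fat were each measured on 1 Agilent 1-colour array, all 3 on 1 slide, and samples were grouped by their labels. The intensity of each spot, as the authors deposited it, is a processed signal after background subtraction, from Agilent Feature Extraction 10.7.3.1 per the submitters' processing notes. The authors also deposited a ratio for each spot, which equals the processed signal over 1 constant per array and places the 75th percentile at 1. Its scale is thereby known, it is not centred on genes, and its median was 0.0743 in SVC, 0.0783 in SPA and 0.0789 in MA. Further normalization in the software of the study is not given in the sources used here.

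Control spots and outlier spots (75 in SVC, 98 in SPA and 129 in MA) were left out. Signals were divided by the 75th percentile of the array and log2-transformed, repeated spots of a probe were averaged, and each gene took the values of the probe that was brightest on average over the arrays. A probe not well above background has only a bound, which is its own signal or, if higher, that of the dimmest detected probe, 13.9 in SVC, 12.5 in SPA and 10.3 in MA. Differences were counted at 2-fold and 5-fold, and of 37074 named genes 1 had no value on an array. No test was run. The steps were checked on simulated arrays drawn from the SVC array with known folds, all well past 2-fold, so calls near 2-fold were not checked.

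The 35 members, 12 other gene lists and 9 alternative settings were chosen with earlier results of these data known. Every member is accounted for, with full values for those at least 2-fold apart in any comparison and for Gapdh. Other genes of glucose breakdown are named where they differed by 5-fold, and the other PDH complex genes, Pdk3, Tigar, Pck2, Gpd1l, Gpd2 and the genes named from the remaining lists were added after their values were seen. Gene names are those of the arrays, and promoter sequences are from RefSeq (GRCm38.p6), matched by symbol for 35 of 35 members. The normexp correction was run in R 4.3.3 with limma 3.58.1. All other steps used Python 3.11.15 (pandas 2.3.3, numpy 2.4.6, matplotlib 3.10.9, scipy 1.17.1).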

Additional observations from a re-analysis of the deposited data

How the results depend on the processing

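The 9 alternatives changed the scaling (quantile normalization, or the percentile over detected probes), the background (normexp with offset 50), the source (the deposited ratios), the probe of a gene (the median over its probes, or its dimmest detected one), the filter (none, or detection required on both arrays) and the spots (without those of outlying local background). Of 916 recomputed ratios of single genes, 900 kept their direction and their side of 2-fold, and 0 called ones reversed. The others arose only under quantile normalization and the choice of another probe. Some settings could hardly change a call. The deposited ratios equal the signals over 1 constant per array, and the filter settings leave the 34 measured genes, detected on all arrays, unchanged. All counts of the set stayed within 3/2 of those given, and the medians within 0.1 log2, with 2 exceptions. Quantile normalization moved the median log2 ratio of the set to -0.22 MA over SPA and 0.36 MA over SVC. In MA over SPA it gave 8 genes at least 2-fold higher and 8 lower, where 7 and 11 were counted. Under this setting 4071 of 23957 genes on the arrays were higher by that much and 4011 lower. In MA over SVC it gave 8 and 8, where 6 and 10 were counted, beside 17.5% and 17.5% of all genes. It also took Gpi1, Gapdh, Eno1 and G6pdx under 2-fold and Tkt and Taldo1 past it in MA. The dimmest probe took Pgk1 to -0.51 MA over SPA and -0.34 MA over SVC. It took Pfkl past 2-fold to -1.69 MA over SPA, and turned Pfkl from 0.54 to -1.16 MA over SVC. The same setting left Pgd with bounds only, 0.17 SPA over SVC and -0.36 MA over SPA. These do not reach 2-fold, and as bounds they do not place Pgd under it. With the median over its probes, Pgd was at 0.81 SPA over SVC. The cause of these moves was not tested. The median of all genes moved by less than 0.1 log2 under each setting. No paired analysis was possible because each group holds 1 array, and for the same reason no array could be left out.

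Signal over background limits what can be read of Pgam2 and Pklr. Local background was marked as outlying on 3.21% of spots in SVC, 5.01% in SPA and 1.85% in MA, among them used spots of Gapdh, Eno1 and Pgam1 in SPA and of Pgam1 in SVC.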

Other observations

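Genes of the response to low oxygen outside glycolysis were read from a list of 15. MA over SPA, 3 (20.0%) were at least 2-fold higher, near the 15.8% of all genes, and 6 (40.0%) lower, beside 17.9%. The median log2 ratio of the list was -0.04. In SPA over SVC 0 passed 2-fold, where 3.9% of all genes were higher and 3.25% lower by that much. The median of the list there was 0.38. Bnip3, which marks mitochondria for removal, had a log2 level of 2.73 in SVC, 3.53 in SPA and 6.81 in MA, 9.67-fold higher in MA than in SPA, and Ndrg1 and Vegfa were at log2 ratios of 2.43 and 1.12. On the other side stood Ankrd37, at a log2 ratio of -2.81, Car9, a membrane carbonic anhydrase, 5.86-fold lower, and the collagen prolyl hydroxylase subunits P4ha1 and P4ha2 at log2 ratios of -2.05 and -1.59, with Ero1l at -1.83 and Egln3 at -1.54.

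Enzymes that make NADPH outside the pentose phosphate pathway were higher and lower in equal number in MA over SPA, 3 and 3 of 10, beside 15.8% and 17.9% of all genes, with a median log2 ratio of 0.01. The folate enzymes held the extremes, with cytosolic Aldh1l1 24.3-fold higher in MA than in SPA, and mitochondrial Aldh1l2 and Mthfd2 38.7-fold and 16.7-fold lower. Malic enzyme Me1 was 2.44-fold higher. Of 16 genes often used as references, 0 passed 2-fold in SPA over SVC, with a median of 0.00. Of all genes, 3.9% were higher and 3.25% lower by that much there. In MA over SPA 2 of the 16 were higher and 4 lower, beside 15.8% and 17.9% of all genes, with a median of -0.45. Ppia at -0.03 and Polr2a at -0.13 had log2 ratios MA over SPA near 0, and Gusb at -2.46 and Tfrc at -2.01 the lowest.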
